A study of Mus musculus with 13 samples.

Results

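The genes described here encode 9 proteins that the liver releases into the blood and that act on metabolism or on growth factor signalling, Fgf21, Gdf15, Enho, Inhbe, Igfbp1, Igfbp2, Angptl4, Fetub and Fgl1. They are 9 of 23785 gene rows, identified by Entrez number, in the count tables of a mouse liver RNA sequencing study. The list was chosen by name as liver-secreted hormones, with the measured fold changes of the same 3 comparisons already known. Fold changes and calls of these 9 genes are therefore given as a description and without a test of their own. All 9 passed the filter on low counts in each of the 3 tables.

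The study examined bile duct ligation (BDL), a surgical closure of the common bile duct that holds bile back in the liver, and an inhibitor of the microRNA miR-873-5p. All mice were of the C57 strain and 3 months old, and the study's methods give male animals. The no BDL group held 5 untreated mice. The miR-Ctrl BDL group held 4 ligated mice given a control inhibitor, and the anti-miR-873-5p BDL group, called anti-miR BDL from here on, held 4 ligated mice given a hairpin inhibitor of miR-873-5p. According to the methods both agents were injected into the tail vein at 60 µg per mouse on days 3 and 5 after ligation, and livers were taken on day 7. The untreated mice are labelled as without BDL, and no sham operation or injection is stated for them, so ligation, surgery and injection cannot be told apart in any comparison with no BDL.

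Hepatokines are hormones and binding proteins made mainly by hepatocytes, and their transcripts follow feeding, fasting, cell stress and inflammation. Fgf21 and Gdf15 are stress hormones that act on the brain and on fat tissue, while insulin-like growth factor binding proteins hold growth factors in the circulation. Angptl4 restrains lipoprotein lipase, the enzyme that releases fatty acids from circulating triglyceride.

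In miR-Ctrl BDL livers Inhbe, the subunit of activin E, stood at a lower level than in no BDL livers, and it was 1 of 9 hepatokines called (edgeR's quasi-likelihood test, Benjamini-Hochberg adjusted over all genes, threshold 0.05). In that comparison 35.7% of all genes tested were called in either direction and 16.6% were called as lower. In anti-miR BDL against no BDL, 0 of 9 hepatokines were called, where 21.5% of all genes were. Between both ligated groups 0 of 9 were called, and 0% of all 13746 genes tested were. Enho, Fgf21 and Inhbe nevertheless had higher levels in each of the 3 anti-miR BDL mice of that table than in each of its 3 miR-Ctrl BDL mice. The members' share of 3 of 9 without overlap stood beside 11.4% of all genes, and it belongs to the values known when the list was made.

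The microRNA that was inhibited is shown because it is the target of the agent given. Its mature mouse form in RefSeq, mmu-miR-873a-5p, lies on the minus strand of chr4:36668556-36668576 (GRCm38.p6). Capitals mark the seed, bases 2 to 8.
mmu-miR-873a-5p: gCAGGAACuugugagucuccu
The complement of this seed, GTTCCTG, was searched in the 3′ UTR of 1 transcript per gene. None of the 9 hepatokines held it, while 15.4% of 21144 genes with a 3′ UTR did. The stretches searched ran from 87 bases in Fgl1 to 1637 bases in Angptl4, and a short stretch seldom holds a given run of 7 letters. The share over all genes was not matched for length, so it cannot be set against the 0 of 9. The search says only that these 7 letters are not in those stretches.

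Libraries held between 12185333 and 19689037 counts per mouse. The hepatocyte markers Alb, Apoa1, Apob, Tat, Cps1, Ass1, Fgb and Pck1 were abundant in every liver. Their summed level ranged from 103400 to 115300 counts-per-million (CPM) units in no BDL mice, 51430 to 82440 in miR-Ctrl BDL mice and 45250 to 102100 in anti-miR BDL mice. It is mostly Alb, at 76410 to 89770 CPM in no BDL mice and 34280 to 64030 CPM in miR-Ctrl BDL mice. Apoa1 was also lower in every miR-Ctrl BDL mouse than in every no BDL mouse, but not all markers were. Fgb was at 3896 to 9283 CPM in no BDL mice and 3123 to 12240 CPM in miR-Ctrl BDL mice. Summed cholangiocyte markers ranged from 45.8 to 134 CPM without ligation, 483 to 1725 CPM in miR-Ctrl BDL and 232 to 1668 CPM in anti-miR BDL. Markers of pancreas and of adipocytes stayed at or below 0.121 CPM in sum. These are bulk livers, so fewer hepatocytes and less Alb RNA per hepatocyte cannot be told apart in this sum. The part of cell composition in the values below was not tested.

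A pair of ligated mice needs to be named before the results. Mouse 3 of miR-Ctrl BDL and mouse 2 of anti-miR BDL are present in the tables against no BDL and absent from the table that compares both ligated groups. The methods state that outliers were filtered after clustering, without naming animals. The authors labelled the deposited comparison of both ligated groups as without outliers, and it lacks both mice. Across all genes their mean correlation with the other mice of their own group was 0.932 in each case, the lowest of all 13 mice. Both carried the highest levels of Fgf21, Igfbp1, Igfbp2, Angptl4 and Inhbe in their group and the lowest level of Enho. Their levels of Tat, an amino acid degrading enzyme of fasting, were 3534 and 4835 CPM against 424 to 1147 CPM in the other 11 mice. Pck1, the gluconeogenic enzyme, stood at 2529 and 4927 CPM in them against 580.4 to 2313 CPM elsewhere. Tat and Pck1 were singled out after their values were seen. Other hepatocyte markers did not share this order, and Cps1, a urea cycle enzyme, was at 744.8 CPM in miR-Ctrl BDL mouse 3, the lowest of 13 mice, and at 2631 CPM in anti-miR BDL mouse 2. The same pair of mice had low sums of other cell type markers. Endothelial markers summed to 15.3 and 22.8 CPM in them against 55.4 to 114 CPM in the other 11 mice. Among ligated mice they also had the lowest sums of stellate cell and fibroblast markers, at 211 and 207 CPM against 392 to 829 CPM. Their sums of cholangiocyte markers were lowest too, at 483 and 232 CPM against 1118 to 1725 CPM. That sum is mostly Spp1, at 403 and 194.8 CPM in them, and not all other markers of the list shared the order. Krt19, at 11.91 and 12.97 CPM, lay within the 7.186 to 18.95 CPM of the other ligated mice. Sox9 was highest of all mice in miR-Ctrl BDL mouse 3, at 47.46 CPM. In anti-miR BDL mouse 2 it was lowest of the ligated mice, at 14.11 CPM. Neutrophil markers were highest of all mice in miR-Ctrl BDL mouse 3, at 206 CPM, and 8.27 CPM in anti-miR BDL mouse 2. The part of these differences in the hepatokine levels was not tested.

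**Figure D1:**
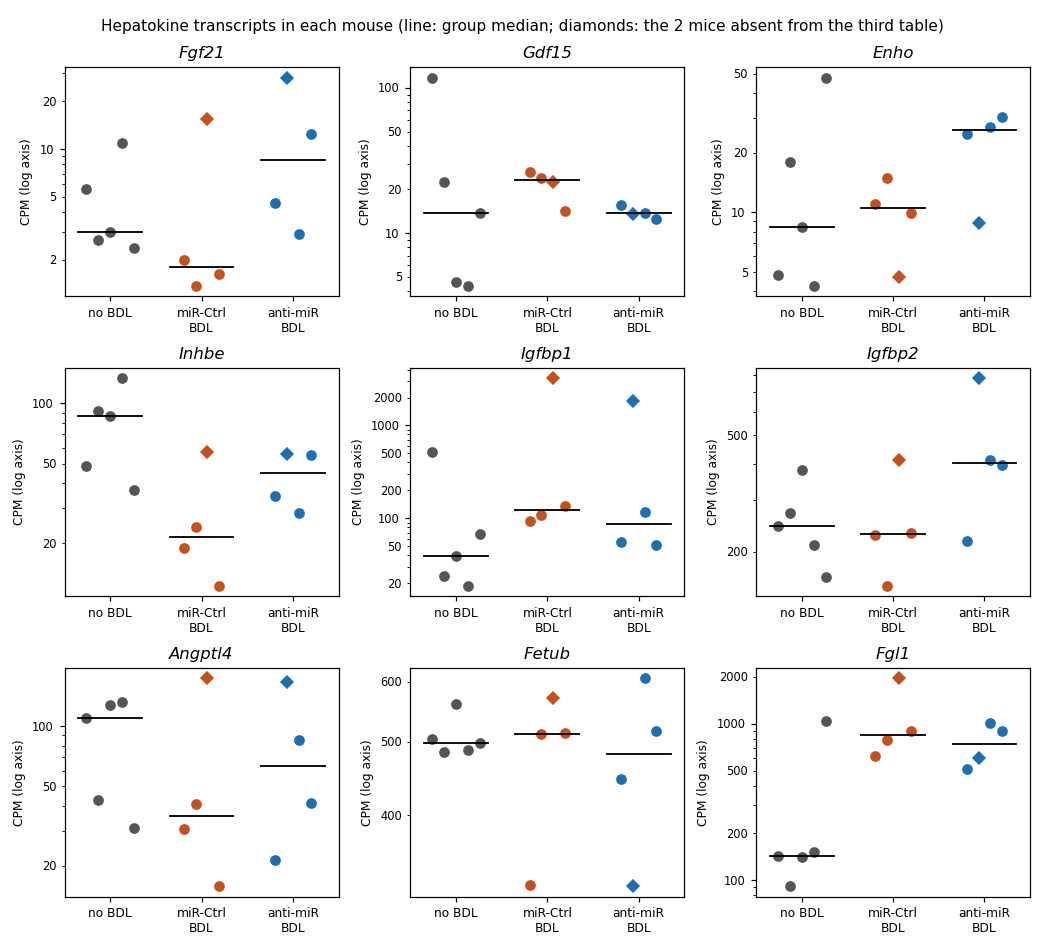
Level of each hepatokine transcript in each of the 13 mice, in CPM scaled jointly over all mice, on log axes. Points are mice, lines are group medians and diamonds are mouse 3 of miR-Ctrl BDL and mouse 2 of anti-miR BDL. Both diamonds lie far above their groups for Igfbp1 and below them for Enho.

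Per-mouse levels are given as CPM scaled over all 13 mice by the trimmed mean of M-values (TMM), and fold changes come from the fit of each deposited table. Gene positions are those of RefSeq on GRCm38. Fgf21 (chr7:45613890-45615490), a hormone of fasting and of amino acid stress, stood at 5.61, 2.67, 3.00, 10.8 and 2.38 CPM in no BDL mice 1 to 5. The miR-Ctrl BDL mice 1 to 4 had 1.99, 1.37, 15.6 and 1.62 CPM, and the anti-miR BDL mice 4.56, 28.1, 2.90 and 12.4 CPM. All 3 groups overlapped when every mouse was counted. Of the miR-Ctrl BDL mice, 3 were below every no BDL mouse and the remaining 1 was above all of them.

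For Fgf21 the log2 fold change was 0.04 (SE 0.78) in miR-Ctrl BDL against no BDL and 1.29 (SE 0.67) in anti-miR BDL against no BDL. Without mouse 3 of miR-Ctrl BDL the first value became −1.54 (SE 0.53) and was called, and without mouse 2 of anti-miR BDL the second became 0.46 (SE 0.59). In the table of both ligated groups, which lacks both outlying mice, the fold change was 2.00 (SE 0.55). With all 4 mice of each ligated group it was 1.26 (SE 0.96). Counts behind these values were low, from 23 to 371 reads per mouse.

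Gdf15 (chr8:70629393-70632470), a stress hormone that signals through the brainstem receptor Gfral, reached 117 CPM in no BDL mouse 1 and 22.6, 4.64, 4.35 and 13.7 CPM in mice 2 to 5. In miR-Ctrl BDL it was 26.4, 24.0, 22.4 and 14.2 CPM. The anti-miR BDL mice had 15.7, 13.7, 13.8 and 12.4 CPM, the narrowest spread of the 3 groups. Ligated mice thus lay within the range of the unligated ones. The 4 values under the control inhibitor and the 4 under the miR-873-5p inhibitor overlapped only through mouse 4 of miR-Ctrl BDL and mouse 1 of anti-miR BDL.

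The log2 fold change of Gdf15 was −0.54 (SE 0.86) in miR-Ctrl BDL and −1.18 (SE 0.87) in anti-miR BDL, each against no BDL, and −0.60 (SE 0.23) between both ligated groups. Median levels ran the other way in the first comparison, 23.2 CPM in miR-Ctrl BDL and 13.7 CPM in no BDL. Without no BDL mouse 1 the fold changes against no BDL turned to 0.97 (SE 0.50) and 0.34 (SE 0.48). The counts of Gdf15 differ slightly between the deposited tables, for example 439 reads in the first and 427 in the third for miR-Ctrl BDL mouse 1. Levels above use the tables against no BDL.

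Enho encodes adropin, a small secreted peptide linked to carbohydrate and lipid use. It stood at 4.84, 18.0, 8.41, 4.27 and 47.7 CPM in no BDL mice 1 to 5. Under the control inhibitor the ligated mice had 11.1, 14.8, 4.75 and 9.89 CPM, and the anti-miR BDL mice 24.9, 8.80, 27.0 and 30.3 CPM. Apart from mouse 2, every anti-miR BDL mouse was above every miR-Ctrl BDL mouse, while the unligated mice spanned both.

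Between both ligated groups the log2 fold change of Enho was 1.19 (SE 0.17) with 3 mice per group and 1.16 (SE 0.42) with 4. Against no BDL it was −0.68 (SE 0.69) for miR-Ctrl BDL and 0.48 (SE 0.68) for anti-miR BDL. Without no BDL mouse 5, the highest, these became 0.23 (SE 0.49) and 1.40 (SE 0.51). The gene spans chr4:41638144-41640302 and overlaps Dnaic1, a ciliary dynein gene. The library kit does not mark strand, so reads from both cannot be told apart where they overlap. Dnaic1 held 1 to 55 reads per mouse against 52 to 616 for Enho, and its highest counts, 55, 47 and 29, were in no BDL mouse 5 and anti-miR BDL mice 4 and 3. The part of this overlap in the Enho values was not tested.

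Inhbe (chr10:127349402-127351848), the inhibin beta E chain that forms activin E, stood at 48.5, 91.5, 86.3, 134 and 36.9 CPM in no BDL mice 1 to 5. In miR-Ctrl BDL it was 18.8, 24.1, 56.9 and 12.2 CPM. Mouse 3 of that group was inside the no BDL range and the other 3 were below it. In the anti-miR BDL mice the levels were 34.3, 55.7, 28.2 and 55.1 CPM, which overlapped both other groups.

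The log2 fold change of Inhbe was −1.49 (SE 0.49) in miR-Ctrl BDL against no BDL, the 1 called value among the 9 genes. It was −2.09 (SE 0.43) without mouse 3 of miR-Ctrl BDL, and −0.75 and not called when libraries were scaled by their totals alone. Leaving out 1 mouse ended the call in 6 of 9 cases, those of no BDL mice 2, 3 and 4 and of miR-Ctrl BDL mice 1, 2 and 4, where the fold change lay between −1.47 and −1.22. In anti-miR BDL against no BDL the fold change was −0.85 (SE 0.37), and between both ligated groups 1.09 (SE 0.32). With all 4 mice of each ligated group it was 0.64 (SE 0.46).

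Igfbp1 (chr11:7197787-7202546) is an insulin-repressed binding protein that rises in fasting and stress. In no BDL mice 1 to 5 it stood at 522, 24.0, 39.2, 18.6 and 67.8 CPM. The miR-Ctrl BDL mice had 92.7, 107, 3231 and 137 CPM, and the anti-miR BDL mice 55.4, 1852, 118 and 51.5 CPM. A single mouse in each group therefore carried 13.9, 28.8 and 24.7 times the mean of the others. Of the remaining 6 ligated mice, 4 were above every remaining unligated mouse.

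The fold changes of Igfbp1 rested on these mice. On the log2 scale they were 2.74 (SE 1.36) for miR-Ctrl BDL and 1.96 (SE 1.30) for anti-miR BDL, each against no BDL. Without the ligated mouse absent from the third table they turned to −0.23 (SE 1.01) and −0.81 (SE 1.06). Without no BDL mouse 1 they were 4.57 (SE 1.31), which was called, and 3.78 (SE 1.23). In the third table, anti-miR BDL differed from miR-Ctrl BDL by −0.59 (SE 0.33).

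Igfbp2 (chr1:72824480-72852474), a further binding protein of insulin-like growth factors, varied less. It stood at 246, 271, 381, 211 and 164 CPM in no BDL and at 228, 153, 412 and 232 CPM in miR-Ctrl BDL. In anti-miR BDL the values were 217, 782, 410.3 and 395 CPM. The groups overlapped, with 3 of 4 anti-miR BDL mice above every no BDL mouse. The log2 fold change was 0.03 (SE 0.30) in miR-Ctrl BDL and 0.84 (SE 0.34) in anti-miR BDL against no BDL, and 0.73 (SE 0.28) between both ligated groups.

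Angptl4 (chr17:33774900-33781575) stood at 109, 42.5, 128, 132 and 30.8 CPM in no BDL mice 1 to 5. The miR-Ctrl BDL mice had 30.6, 40.6, 173 and 15.8 CPM and the anti-miR BDL mice 21.3, 165, 84.9 and 41.4 CPM. Every group held both low and high mice, and the 2 highest ligated mice were those absent from the third table. The log2 fold change was −0.43 (SE 0.68) and −0.16 (SE 0.60) against no BDL in the same order as above. Without mouse 3 of miR-Ctrl BDL the former became −1.58 (SE 0.53) and was called. The ligated groups differed by 0.75 (SE 0.52).

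Fetub (chr16:22918382-22939768), a fetuin of the cystatin superfamily, varied little among unligated mice. It ranged from 485 to 561 CPM in no BDL with a median of 498 CPM. The miR-Ctrl BDL mice had 324, 511, 570.4 and 513 CPM and the anti-miR BDL mice 447, 322, 606 and 517 CPM. The groups overlapped throughout. Its log2 fold changes were −0.06 (SE 0.16), −0.07 (SE 0.19) and 0.22 (SE 0.22) in the 3 comparisons in turn.

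Fgl1 (chr8:41191434-41217978), also called hepassocin, is an acute phase protein and a ligand of the T cell receptor Lag3. It stood at 143, 91.2, 141, 152 and 1049.8 CPM in no BDL mice 1 to 5. With the control inhibitor it was 622, 790.4, 1951 and 902 CPM and the anti-miR BDL mice 512, 600.0, 1010.3 and 895 CPM. All 8 ligated mice were above the lower 4 unligated mice, and no BDL mouse 5 lay among the ligated ones.

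The log2 fold change of Fgl1 against no BDL was 1.77 (SE 0.73) for miR-Ctrl BDL and 1.28 (SE 0.70) for anti-miR BDL, neither called by edgeR. The DESeq2 Wald test called it in miR-Ctrl BDL (1.79), and with Inhbe it made 2 of 9 hepatokines called there by that test, beside 39.3% of all genes. In anti-miR BDL that test called 0 of 9, beside 27.6%. For Igfbp1 DESeq2 gave no adjusted p in either comparison with no BDL. That gene therefore counts as not called in these shares without having been judged. Without no BDL mouse 5 the fold changes of Fgl1 were 3.04 (SE 0.37) and 2.55 (SE 0.28), both called by edgeR. That mouse also held the highest summed level of macrophage markers among unligated mice, 660 CPM where the lowest unligated mouse had 119.5 CPM. The relation of both values was not tested. Between both ligated groups the fold change was 0.06 (SE 0.28).

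**Figure D2:**
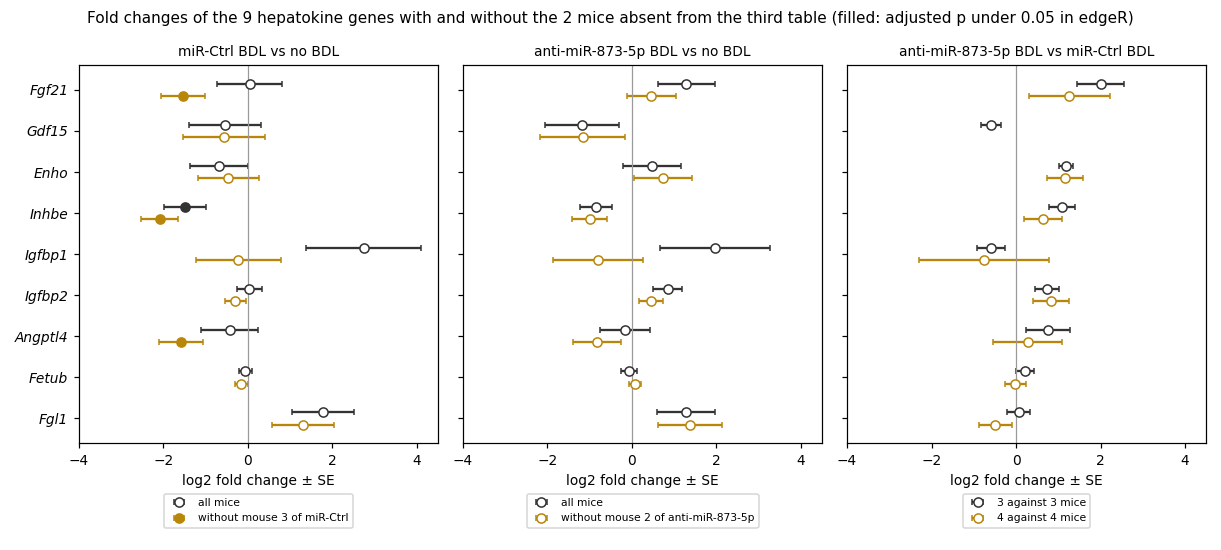
Log2 fold change (± SE) of each hepatokine in the 3 comparisons, filled where the gene was called in edgeR. Dark points use the deposited table as it is; ochre points leave out the ligated mouse absent from the third table (left and middle) or bring both such mice back (right, without Gdf15). Igfbp1 moves from 2.74 to −0.23 and Fgf21 from 0.04 to −1.54 in miR-Ctrl BDL against no BDL.

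Considered as a group, 4 of 9 hepatokines had a positive fold change in miR-Ctrl BDL against no BDL, with a median of −0.06 on the log2 scale where all genes had −0.01. No member had groups without overlap, beside 29.6% of all genes. In anti-miR BDL against no BDL 5 of 9 were positive and the median was 0.48 beside −0.01 for all genes. Again 0 of 9 had groups without overlap, beside 18.3% of all genes. These comparisons share the no BDL mice.

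Leaving out mouse 3 of miR-Ctrl BDL raised the hepatokines called in miR-Ctrl BDL against no BDL to 3 of 9, Fgf21, Inhbe and Angptl4, all lower, where 20.1% of all genes were called as lower. Leaving out mouse 2 of anti-miR BDL left 0 of 9 called against no BDL, where 31.7% of all genes were. Scaling by library totals alone gave 4 of 9 called in each comparison with no BDL, all higher, where 71.6% and 76.6% of all genes were called as higher. Under that scaling all genes had a median of 0.79 on the log2 scale and of 0.82, not −0.01, and it turned the sign of Enho, Angptl4, Gdf15 and Fetub in the miR-Ctrl BDL comparison and of Angptl4 and Fetub in the anti-miR BDL comparison.

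Between both ligated groups 7 of 9 hepatokines had a positive fold change, with a median of 0.73 beside 0.01 for all genes. Enho, Fgf21, Gdf15, Igfbp2 and Inhbe, 5 of 9, had an unadjusted p under 0.05 in edgeR, as did 6.28% of all genes tested. The DESeq2 Wald test called 1 of 9, Enho, and 0.218% of all genes. The members were chosen with the fold changes of this comparison known. Their shares are therefore a description and cannot show an excess over all genes. In that test on simulated counts of this comparison, 20.8% of calls fell on unchanged genes, against 5.7% with edgeR. The simulated counts held no outlying mouse and a fixed set of changed genes. They were drawn with dispersions that edgeR had estimated, so they are not neutral between both tools. These shares of calls on unchanged genes need not hold for the measured counts.

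Promoter sequence is shown for the pair of hepatokines whose levels were most alike, Fgf21 and Inhbe. RefSeq starts were at hand for 6 of 9 members, and Enho, Angptl4 and Fgl1 had none. The letters TGATGCAA, a composite element bound by C/EBP and ATF factors, were searched on both strands in the 250 bases before and 50 after each start. They occurred in 0.89% of 32851 promoters and in those of Fgf21 (minus strand, chr7:45615441-45615740, GRCm38.p6) and Inhbe (minus strand, chr10:127351799-127352098). Both carry the element as its reverse complement, in capitals, 139 bases upstream of the Fgf21 start and 181 bases upstream of the Inhbe start.
Fgf21: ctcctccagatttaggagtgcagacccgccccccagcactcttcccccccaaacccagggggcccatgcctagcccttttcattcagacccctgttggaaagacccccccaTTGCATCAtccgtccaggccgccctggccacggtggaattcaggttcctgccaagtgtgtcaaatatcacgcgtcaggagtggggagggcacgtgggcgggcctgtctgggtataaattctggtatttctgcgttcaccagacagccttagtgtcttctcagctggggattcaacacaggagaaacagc
Inhbe: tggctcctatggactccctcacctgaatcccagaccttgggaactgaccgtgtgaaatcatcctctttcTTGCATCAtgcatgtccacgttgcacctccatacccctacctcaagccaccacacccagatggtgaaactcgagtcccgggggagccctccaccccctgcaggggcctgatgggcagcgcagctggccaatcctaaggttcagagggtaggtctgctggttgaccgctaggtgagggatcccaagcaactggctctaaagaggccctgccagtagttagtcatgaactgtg

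A second short window is shown for Igfbp1 because its promoter held the insulin response letters CAAAACA, present on either strand in 6.28% of promoters. They began 108 bases upstream of the start, within chr11:7197537-7197836 on the plus strand.
Igfbp1: gagctcacaagCAAAACAaacttattttg
The E-box CACGTG occurred in the promoters of Igfbp2, Fgf21 and Gdf15 and in 7.15% of all promoters. The forkhead letters GTAAACA occurred in 1 Fetub promoter and in 3.65% of all. The cyclic AMP element TGACGTCA, at 1.79% of promoters, and the STAT letters TTCNNNGAA, at 8.3%, matched none of the members. A match is a run of letters and was not measured as binding here.

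Over the 8 ligated mice the levels of Fgf21 and Inhbe ran together, with Pearson's r = 0.899 and Spearman's rho = 0.905 of log2(CPM + 1). After leaving out the 2 mice farthest from the Fgf21 median, which are those absent from the third table, r was 0.875. Igfbp2 and Angptl4 had r = 0.77, which became 0.844 without the 2 mice farthest from the Igfbp2 median, and Fetub and Fgl1 had r = 0.685, which became 0.77. Igfbp1 behaved otherwise. Its r with Angptl4 fell from 0.821 to 0.0611, and its r with Fgf21 went from 0.662 to −0.847, without mouse 3 of miR-Ctrl BDL and mouse 2 of anti-miR BDL. Enho and Igfbp1 ran opposite to each other, with r = −0.816 and −0.598 without 2 mice. All 36 pairs were computed. These mice share 2 treatment groups, so each r is a description across animals that differ in more than these genes.

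**Figure D3:**
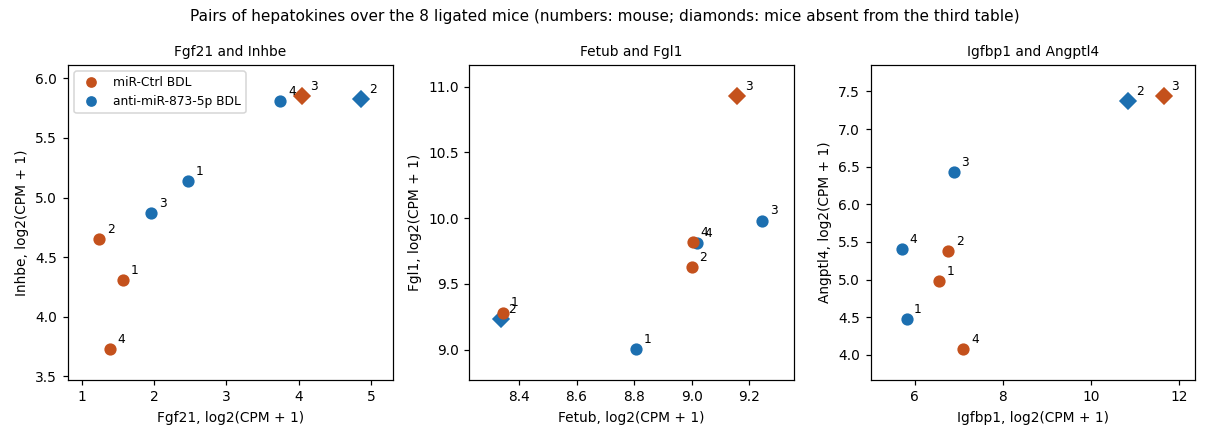
Log2(CPM + 1) of pairs of hepatokines in the 8 ligated mice, numbered by mouse and coloured by group, with diamonds for the mice absent from the third table. Fgf21 and Inhbe fall along a line (r = 0.899), Fetub and Fgl1 less so (r = 0.685), and the Igfbp1 and Angptl4 relation rests on both diamonds.

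Among all 12984 genes compared, the 2 whose levels were most like each hepatokine over the ligated mice were named by the same measure. For Enho they were S1pr5 (r = 0.987), a sphingosine phosphate receptor, and Bricd5 (r = 0.976). Fgl1 ran with Bcl3 (r = 0.989), a nuclear cofactor of NF-kappaB, and Ccdc117 (r = 0.97). For Igfbp1 they were Tsc22d2 (r = 0.991) and Tmem87b (r = 0.99), and for Igfbp2 Nsun5 (r = 0.982) and Zfp580 (r = 0.967). Angptl4 ran with Mbd5 (r = 0.977) and Gmeb2 (r = 0.975), Fgf21 with Rps15 (r = 0.968) and Ncor1 (r = 0.966), and Inhbe with Zzz3 (r = 0.968) and N4bp2l2 (r = 0.966). Gdf15 was likest Cttn (r = 0.938) and Fat1 (r = 0.929). Fetub had the lowest pair of likenesses, Saa4 (r = 0.928) and Spop (r = 0.922), which fell to 0.67 and 0.388 without 2 mice. In every other case r stayed at 0.812 or above without the 2 farthest mice. Each named gene was picked for its r among all these genes over only 8 mice. The r without 2 of them reuses the other mice, so it is no independent check.

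Levels of different genes can be compared only per length, here as CPM per kilobase of 1 RefSeq-linked transcript. On that scale the unligated livers held 328 ± 20.2 for Fetub, 195 ± 62.1 for Igfbp2 and 282 ± 367 for Fgl1 (mean ± SD, n = 5), and Igfbp1 followed at 88.1 ± 143. Fgf21 was lowest at 5.15 ± 3.74, with Enho at 13.1 ± 14.3, Gdf15 at 21.0 ± 31.0 and Angptl4 at 26.8 ± 14.6. In miR-Ctrl BDL livers Fgl1 had the highest mean, 952 ± 537, as it had in anti-miR BDL livers, 674 ± 211 (n = 4 each). Igfbp1 stood at 585 ± 1020 and 340 ± 583 in these groups. It reached 2119 in miR-Ctrl BDL mouse 3 and 1214 in anti-miR BDL mouse 2, above the highest Fgl1 values of 1742 and 902, so Fgl1 led by its mean and not in every mouse. The SDs of Fgl1, Igfbp1, Enho and Gdf15 in no BDL exceed their means, so none of these 4 can be placed against its neighbours. The transcript used for Inhbe, 5319 bases, is longer than its whole RefSeq gene span of 2447 bases, so its level per length is not given.

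Related genes were taken from 3 lists by function, which were also drawn up with earlier results known. Of 23 other hepatokines 9 were called in miR-Ctrl BDL against no BDL (39.1%, beside 35.7% of all genes), 1 higher and 8 lower, with a median log2 fold change of −0.13. In anti-miR BDL against no BDL 3 of 23 were called (13%, beside 21.5%), 1 higher and 2 lower, with a median of −0.30. Ttr, the carrier of thyroid hormone and retinol, fell by 2.14 (SE 0.22, adjusted p = 0.000212 in edgeR) and by 1.67 (SE 0.30, adjusted p = 0.00571) on the log2 scale. Angptl8, a regulator of lipoprotein lipase, fell by 2.41 (SE 0.71, adjusted p = 0.0244) in miR-Ctrl BDL. Its fold change in anti-miR BDL was −1.78 (SE 0.69) and was not called. Gpnmb, which macrophages also make, rose by 6.06 (SE 0.38, adjusted p = 3.89e-05) and by 6.30 (SE 0.66, adjusted p = 0.00072). Gpnmb held 1 to 5 reads in each unligated mouse and 79 to 550 in each ligated one. Summed macrophage markers ranged from 119.5 to 660 CPM without ligation and from 377 to 1435 CPM with it, and their part in Gpnmb was not tested.

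Receptors, binding partners and targets of the hepatokines moved in both directions. In miR-Ctrl BDL against no BDL 16 of 24 were called (66.7%, beside 35.7% of all genes), 8 higher and 8 lower, and in anti-miR BDL 11 of 24 (45.8%, beside 21.5%), 6 higher and 5 lower. Of 29 listed genes Gfral, Ret, Acvr1c, Mep1a and Mep1b did not pass the filter. Lpl, the lipase that Angptl4 inhibits, rose by 2.52 (SE 0.56, adjusted p = 0.00677) and by 2.01 (SE 0.44, adjusted p = 0.0121). Lag3, a receptor of Fgl1, fell by 1.84 (SE 0.27, adjusted p = 0.001) in miR-Ctrl BDL, at low mean levels of 0.47 CPM against 1.71 CPM in no BDL. Its fold change in anti-miR BDL was −0.80 (SE 0.27) and was not called. Igfbp5, a binding protein, rose by 1.69 (SE 0.35, adjusted p = 0.00462) and by 2.51 (SE 0.62, adjusted p = 0.0202). Fstl3, which binds activins, rose by 1.69 (SE 0.44, adjusted p = 0.0143 in edgeR) in miR-Ctrl BDL and by 2.14 (SE 0.46, adjusted p = 0.0114) in anti-miR BDL. Its mean level was low, 0.42 CPM in no BDL, 1.37 CPM in miR-Ctrl BDL and 1.90 CPM in anti-miR BDL. Igfbp6 had 1 read in all 5 unligated mice together and 17 to 138 reads in each ligated mouse, so no fold is given. Klb, the co-receptor of Fgf21, was named after its values were seen and fell by 1.27 (SE 0.25, adjusted p = 0.00355) and by 0.92 (SE 0.24, adjusted p = 0.0256).

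Of 24 transcription factors of fasting, cell stress and liver identity, 8 were called in miR-Ctrl BDL against no BDL (33.3%, beside 35.7% of all genes), 2 higher and 6 lower, with a median of −0.24. In anti-miR BDL 2 of 24 were called (8.33%, beside 21.5%), both lower, with a median of −0.08. Ppara, the fasting receptor that drives Fgf21 and Angptl4, fell by 1.86 (SE 0.29, adjusted p = 0.00133) in miR-Ctrl BDL. In anti-miR BDL its fold change was −0.96 (SE 0.32, adjusted p = 0.0576 in edgeR), which was not called. Mlxipl, the carbohydrate sensor, fell by 1.76 (SE 0.26, adjusted p = 0.00105) and by 1.51 (SE 0.30, adjusted p = 0.00853). Nr1d1, a clock repressor, fell by 1.47 (SE 0.38, adjusted p = 0.0145) and Nr1h4, the bile acid receptor, by 0.97 (SE 0.17, adjusted p = 0.00196), both in miR-Ctrl BDL. Their fold changes in anti-miR BDL were −0.94 (SE 0.47) and −0.46 (SE 0.19), neither called. Nr3c1, the glucocorticoid receptor, fell by 0.48 (SE 0.11, adjusted p = 0.00722 in edgeR) in miR-Ctrl BDL and by 0.41 (SE 0.11, adjusted p = 0.0303) in anti-miR BDL. Without mouse 3 of miR-Ctrl BDL 13 of 24 were called, beside 42.3% of all genes, and without mouse 2 of anti-miR BDL 6 of 24, beside 31.7%. Rora, named after its values were seen and called in neither comparison, was counted unlike in the deposited tables. Its mean in the same no BDL mice was 0.52 CPM in the table with miR-Ctrl BDL and 37.4 CPM in that with anti-miR BDL. Its fold changes in both comparisons are therefore not alike in measure.

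EdgeR called 0 genes of the 3 lists between both ligated groups. At an unadjusted p under 0.05 there were 1 of 23 other hepatokines, 4 of 24 receptors and partners and 5 of 24 transcription factors, beside 6.28% of all genes. DESeq2 called 0, 1 and 0 of them in that order, beside 0.218% of all genes.

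**Figure D4:**
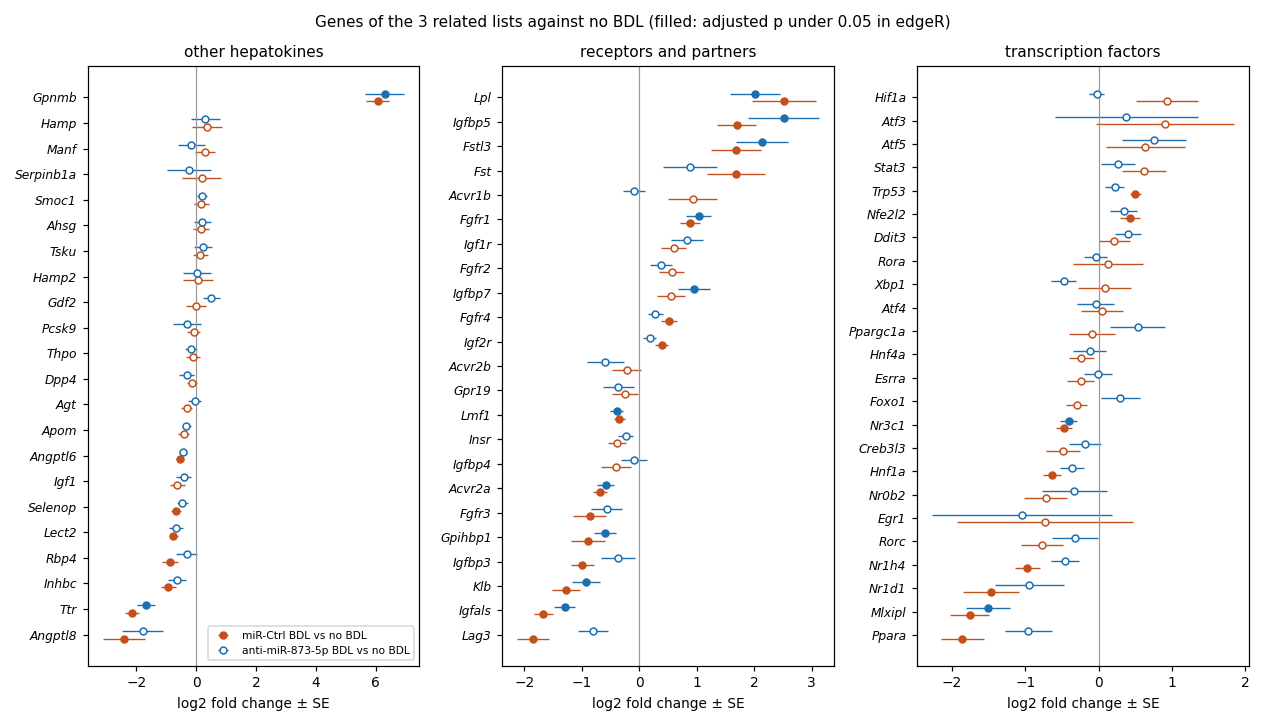
Log2 fold change (± SE) of genes of the 3 related lists in miR-Ctrl BDL (orange) and anti-miR BDL (blue) against no BDL, ordered by the former and filled where adjusted p was under 0.05 in edgeR. Both comparisons share the unligated mice. Most called other hepatokines lie below 0, and Gpnmb lies farthest above it. Igfbp6, with 1 read in all unligated mice, is not drawn. Rora was counted unlike in the tables of both comparisons, so its points cannot be compared.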

How the data were processed

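Poly(A) libraries of 13 mouse livers were made with a kit that does not mark strand and read as single reads. Per the labels and methods, reads were trimmed, checked with FastQC and mapped to mm10 with TopHat by the authors, and the counting program and annotation are not given in the sources used here. The authors deposited 3 tables of raw whole-number counts per Entrez gene, 1 for each comparison, and 0 columns were left unmapped. Of 23785 Entrez numbers, 23709 were matched to a symbol. GRCm38.p6 positions and sequences are from RefSeq, exon lengths and 3′ UTRs from GENCODE transcripts.

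Each table was fitted on its own with edgeR 4.0.16 in R 4.3.3 (filterByExpr, TMM, quasi-likelihood F test, Benjamini-Hochberg over all genes tested, threshold 0.05). TMM levels per mouse use genes whose counts were the same in all tables, 22246 of 23019, plus Gdf15. DESeq2 1.42.0, other scalings, no filter, a mouse-number block and leaving out each mouse were tried as alternatives. The fit was tested on simulated data and recovered 91.5%, 89.5% and 91% of 200 genes changed by 2 on the log2 scale, in the order miR-Ctrl BDL against no BDL, anti-miR BDL against no BDL and both ligated groups, on 12959, 13043 and 13616 genes. The simulated data held no outlying mouse, changes of 1 size only and dispersions estimated by edgeR itself. Their recovery therefore does not carry over to the measured counts. Replicates are separate mice.

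Members and lists were chosen with earlier results of these data known. All 9 members are named, with up to 4 called genes of largest fold change per list and comparison with no BDL, any called gene between both ligated groups, and the 2 genes most like each member. Exceptions are marked in the text. A gene of the other hepatokines that the rule would name is not reported here.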

Additional observations from a re-analysis of the deposited data

Results flagged for a closer look

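In 8 of 27 groups of mice, 9 genes in 3 groups each, 1 mouse lay farther from the others than Dixon's 95% limit allows. The limit allows about 1 in 20 groups only where values are normally distributed. Here it was applied to CPM without a log, and all 8 flagged mice were the highest of their group. The genes were also chosen with results of these mice known. The 8 of 27 therefore cannot be set against that rate and serve only to point out mice. The mice are not independent across genes, since the same animals recur. Mouse 3 of miR-Ctrl BDL was set apart for Fgf21 (15.6 CPM, the nearest other mouse 1.99), Igfbp1 (3230 CPM, nearest 137) and Angptl4 (173 CPM, nearest 40.6). Mouse 2 of anti-miR BDL was set apart for Igfbp1 (1850 CPM, nearest 118). Among unligated mice, mouse 1 was set apart for Igfbp1 (522 CPM, nearest 67.8) and Gdf15 (117 CPM, nearest 22.6), mouse 5 for Fgl1 (1050 CPM, nearest 152) and mouse 3 for Fetub (561 CPM, nearest 504). The last gap is small in size because Fetub varied little. Enho, Igfbp2 and Inhbe had no such mouse in any group.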

How the results depend on the processing

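Scaling by DESeq2's size factors or dropping the filter on low counts kept the sign and call of every hepatokine in the 3 comparisons. Library totals alone gave 9635 genes and 4 hepatokines called in miR-Ctrl BDL against no BDL. In anti-miR BDL against no BDL they gave 10194 genes, 4 hepatokines, 10 other hepatokines and 15 transcription factors. Signs turned to 0.17 for Enho, 0.23 for Angptl4, 0.37 for Gdf15 and 0.72 for Fetub in the former, and to 0.57 for Angptl4 and 0.77 for Fetub in the latter (log2 fold changes here and below). DESeq2's test called 2 hepatokines in the former, 7 other hepatokines and 4 transcription factors in the latter, and 30 genes, 1 hepatokine and 1 receptor gene between both ligated groups. All 4 mice of each ligated group gave −0.0169 for Fetub and −0.50 for Fgl1. Apart from scaling, the cause of these shifts was not tested.

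Leaving out 1 mouse gave 0 to 3 hepatokines and 7 to 13 transcription factors in miR-Ctrl BDL against no BDL. In anti-miR BDL against no BDL it gave 1261 to 4317 genes (the extremes without its mice 3 and 2), 0 to 2 hepatokines, 2 to 6 other hepatokines, 6 to 12 receptors and partners and 1 to 6 transcription factors, and between both ligated groups 0 to 1 genes. Fold changes then crossed 0 in miR-Ctrl BDL for Enho (−0.93 to 0.23), Fgf21 (−1.54 to 0.57), Igfbp1 (−0.23 to 4.57), Igfbp2 (−0.30 to 0.21), Gdf15 (−0.84 to 0.97) and Fetub (−0.154 to 0.0844). They crossed 0 in anti-miR BDL for Igfbp1 (−0.81 to 3.78), Angptl4 (−0.82 to 0.15), Gdf15 (−1.49 to 0.34) and Fetub (−0.221 to 0.0685), and between both ligated groups for Fgl1 (−0.14 to 0.30).

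A further alternative was chosen after seeing the data, and no BDL mice 1 and 5 were picked on levels of these same genes, so its counts support nothing. Without them and the ligated mouse absent from the third table, 5 hepatokines and 14 transcription factors were called in miR-Ctrl BDL, and 4 hepatokines, 7 other hepatokines and 9 transcription factors in anti-miR BDL. Enho (0.25), Fgf21 (−1.72), Igfbp2 (−0.47) and Gdf15 (1.07) changed sign in the former, Gdf15 (0.45) and Fetub (0.0562) in the latter.

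Mouse numbers are shared across groups. Deviations of same-numbered mice from their group means correlated between −0.382 and 0.557 and were not all above 0.1. Between both ligated groups the values were 0.557 and 0.2 for numbers 1 and 4. They were −0.382 and −0.344 for numbers 2 and 3, which each include a mouse absent from the third table. Mice of different numbers were not compared, so this check can neither show nor exclude a pairing. The main fits use none. With mouse number as a block, 2 hepatokines were called in each comparison with no BDL, and 7 receptors and partners and 4 transcription factors in anti-miR BDL. Under the block Enho (0.34), Fgf21 (−0.74), Igfbp2 (−0.14) and Gdf15 (0.46) changed sign in miR-Ctrl BDL, and Fgl1 (−0.15) between both ligated groups.

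Groups of 3 to 5 mice and 23 to 371 reads per mouse for Fgf21 limit what can be told apart.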
